A study of Mus musculus with 12 samples.

Results

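The 5 NF-kB subunit genes (Rela, Relb, Rel, Nfkb1, Nfkb2) and 5 genes of IkB-type inhibitors (Nfkbia, Nfkbib, Nfkbie, Nfkbid, Nfkbiz) were followed in mouse macrophages and osteoclasts with and without LPS. They were taken by gene symbol, all 10 symbols were found among the 54532 genes of the deposited table, and all 10 were among the 11335 genes that reached 1 FPKM (fragments per kilobase of exon, scaled between libraries) in at least 3 libraries. The RNA came from bone marrow of wild-type mice, expanded for 4 to 5 days with CMG, a source of the macrophage growth factor M-CSF, and then kept for 5 to 6 days in 2% CMG. There were 4 groups of 3 libraries. Untreated macrophages had CMG alone, and LPS-treated macrophages also had lipopolysaccharide, a component of the outer membrane of gram-negative bacteria, at 100 ng/mL for 3 h on day 5. Untreated osteoclasts had CMG with RANKL, the ligand that drives macrophage precursors to become bone-resorbing osteoclasts, and LPS-treated osteoclasts had the same with LPS at that dose and time. RANKL is given as 50 to 100 ng/mL in the protocol and as 100 ng/mL for the samples. The labels do not say whether the 3 libraries of a group came from separate mice or cultures, so the p-values measure the spread between these libraries, which may be technical.

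NF-kB proteins act as dimers. Rela, Relb and Rel carry a transactivation domain, while Nfkb1 and Nfkb2 encode the precursors p105 and p100, which are trimmed to the DNA-binding subunits p50 and p52. In resting cells the cytoplasmic inhibitors IkB-alpha (Nfkbia), IkB-beta (Nfkbib) and IkB-epsilon (Nfkbie) hold the dimers back, until LPS, through TLR4 and the IKK kinases, causes the inhibitors to be degraded. Several genes of the system are themselves NF-kB targets, among them Nfkbia, whose resynthesis ends the response. IkB-NS (Nfkbid) and IkB-zeta (Nfkbiz) are nuclear and modify transcription from bound dimers. RANK, the receptor of RANKL, signals through the same IKK kinases and also through the p100 to p52 route, and mice that lack both p50 and p52 form no osteoclasts.

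Because all 10 members rose with LPS, as described below, their promoters were searched for the kappa-B consensus, the 10-base motif that NF-kB dimers bind, on both strands. RefSeq promoter windows of build GRCm38.p6 matched 7 of the 10 members, and Relb, Nfkb1 and Nfkbiz were not covered. In the 250 bases before a transcription start, 5 of these 7 members held a match, namely Rel, Nfkb2, Nfkbia, Nfkbie and Nfkbid, and Rela and Nfkbib held none. A match was present in 7 of the 11 windows of the members, and in 7.25% of the 32851 windows of all genes. Matched letters describe the sequence only. The stretches below are read 5′ to 3′ on the strand of the gene, with the match in capitals, and are shown for the members whose response to LPS is described next.
Nfkbia, chr12:55492648-55492706, minus strand: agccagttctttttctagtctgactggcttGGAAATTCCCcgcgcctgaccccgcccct
Rel, chr11:23771022-23771091, minus strand: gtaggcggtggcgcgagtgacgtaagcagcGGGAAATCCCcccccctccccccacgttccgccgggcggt
Nfkbie, chr17:45555564-45555633, plus strand: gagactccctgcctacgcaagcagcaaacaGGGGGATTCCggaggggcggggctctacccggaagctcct
Nfkbid, chr7:30422156-30422219, plus strand: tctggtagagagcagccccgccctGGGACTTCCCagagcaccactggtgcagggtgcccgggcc
Nfkbid, chr7:30422195-30422264, plus strand: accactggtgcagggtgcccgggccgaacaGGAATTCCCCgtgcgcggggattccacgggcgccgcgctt
The match of Nfkbia began 29 bases before its start, that of Rel 92 bases and that of Nfkbie 106 bases before theirs, and those of Nfkbid 226 and 181 bases before its second listed start. In Rel a further match, shifted by 1 base (GGAAATCCCC), overlapped the one shown. Nfkb2 had 3 windows, each with a match inside annotated exon sequence. Next to its first listed start lay GGGAATTCCC, which began 39 bases before the start, with an overlapping copy shifted by 1 base (GGAATTCCCC), and GGGGCTTTCC, which began 11 bases before it. The windows of its other starts held GGAATGTCCC, 236 bases before, and GGGACTTTCC, 225 bases before.

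The libraries held 15651736 to 20281414 reads assigned to genes, and replicates differed by more than sampling noise. The deposited values were scaled to the typical gene. Rescaled to a fixed total (TPM), the median log2 difference of all genes moved from 0.02 to -0.55 for LPS in macrophages, from 0.01 to -0.06 for LPS in osteoclasts and from -0.01 to 0.51 for the difference between these effects, and it was -0.38 for untreated osteoclasts against macrophages and 0.12 for the treated ones. The cell labels were checked on marker genes. The 10 osteoclast markers summed to 16.3 to 20.5 FPKM in untreated and 24.7 to 29.0 FPKM in LPS-treated macrophages, against 29794 to 31237 and 29220 to 32220 FPKM in osteoclasts, and the defining marker Calcr was at 0 in untreated macrophages. The 8 macrophage markers summed to 13349 to 13412 and 15260 to 15746 FPKM in macrophages, and to 2840 to 3291 and 2722 to 3559 FPKM in osteoclasts. Stromal markers (5 genes) summed to 26.9 to 37.0 FPKM in macrophages and to at most 1.41 FPKM in osteoclasts. Lists for B cells, T cells, neutrophils, dendritic cells and erythroid cells stayed at or below 12.3 FPKM in every library. Mitochondrial transcripts took 1.27% to 1.62% of the reads in macrophages and 5.16% to 6.18% in osteoclasts. The part of stromal or mitochondrial RNA in the differences between cell types below was not tested.

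All 10 members rose with LPS in macrophages, and all 10 also rose in osteoclasts, by less. In macrophages the fold change of the mean FPKM ran from 2.73 for Nfkbid to 71.2 for Nfkbiz, and in osteoclasts from 1.28 for Rela to 45.3 for Nfkbiz. Among all genes tested, limma called 36.8% higher with LPS in macrophages and 11.1% in osteoclasts at a Benjamini-Hochberg adjusted p under 0.05. The 3 treated and 3 untreated libraries did not overlap for any member in either cell type, while 38.8% of all genes were higher without overlap in macrophages and 19.0% in osteoclasts. On the log2(FPKM + 1) scale the differences were all above 1 in macrophages, and in osteoclasts only those of Nfkbie and Nfkbiz were. All 10 members were called higher in both cell types also with the values rescaled to TPM or normalized by quantiles. In these bulk samples, fewer responding cells and less RNA per cell cannot be told apart. The plot of FPKM by library shows the values.

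**Figure D1:**
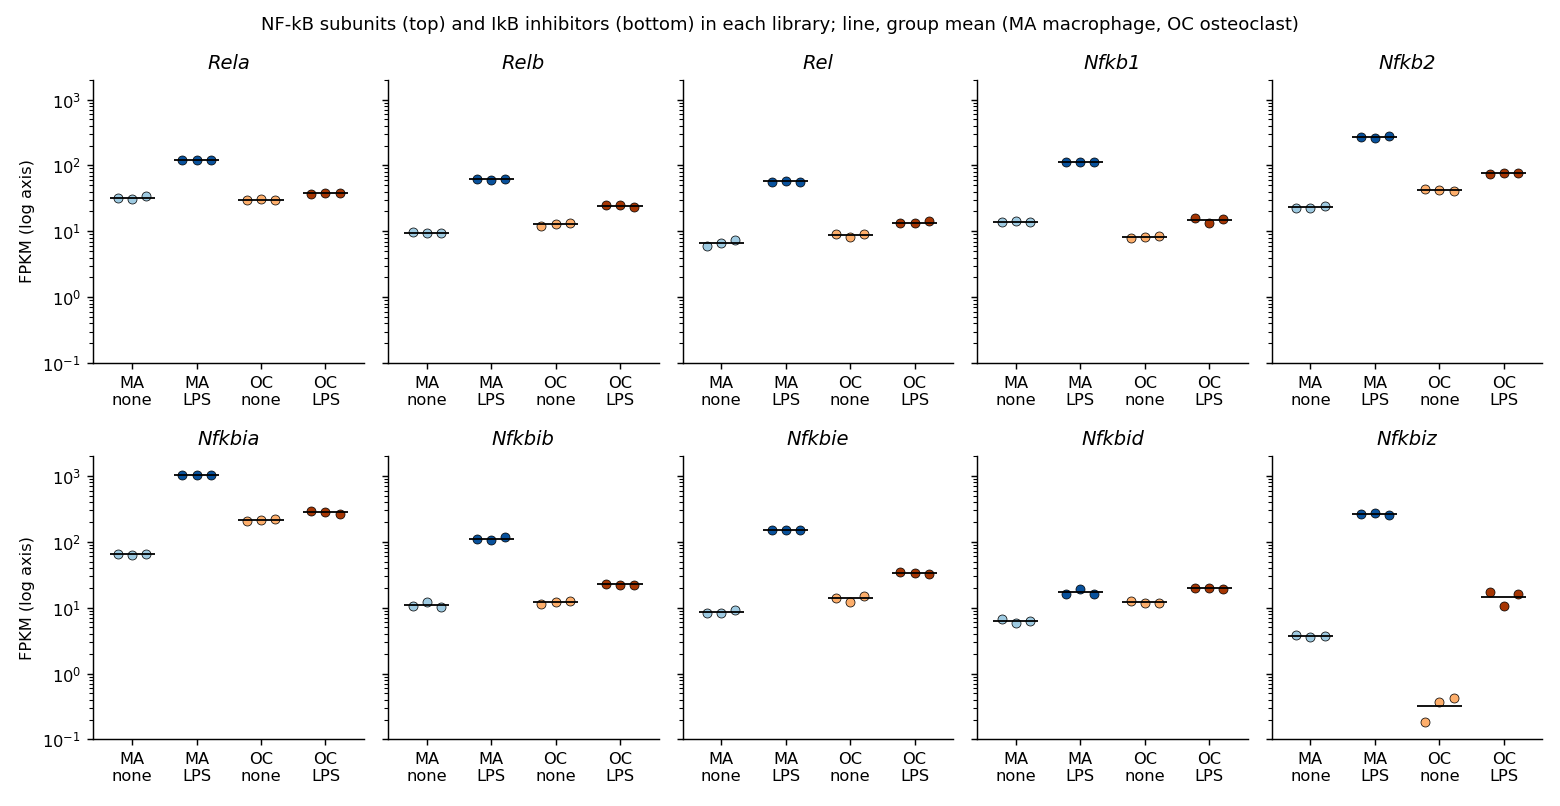
FPKM (log axis) of the 5 subunits and 5 inhibitors in each of the 12 libraries, with the 3 replicates of each group as points and the group mean as a line. LPS-treated macrophages are the highest group for every member except Nfkbid, and untreated osteoclasts are the lowest group for Nfkbiz, at a mean of 0.324 FPKM.

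Rela encodes p65, the main transactivating subunit of the canonical pathway (chr19:5637483-5648130, GRCm38). It stood at 32.5, 31.3 and 33.8 FPKM in untreated and 120.1, 120.4 and 122.4 FPKM in LPS-treated macrophages. In osteoclasts it stood at 29.5, 30.5 and 29.8 FPKM without and at 37.4, 38.7 and 38.7 FPKM with LPS. The LPS-treated macrophages were apart from the other 9 libraries, which all lay between 29.5 and 38.7 FPKM. Rela rose by 1.86 ± 0.04 (SE) in macrophages and by 0.34 ± 0.04 in osteoclasts as log2(FPKM + 1), with limma adjusted p of 6.78e-13 and 2.78e-05. It was the member with the lowest fold in osteoclasts, 1.28 (means, n = 3 each), and its macrophage difference was 1.24 with TPM values and 1.20 with quantile-normalized ones.

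Relb encodes the subunit that pairs with p52 in the pathway downstream of the kinase NIK (chr7:19606217-19629438). Its values were 9.89, 9.28 and 9.50 FPKM in untreated macrophages and 62.0, 61.0 and 61.6 FPKM after LPS. Osteoclasts held 11.9, 13.1 and 13.2 FPKM without LPS and 25.1, 24.7 and 23.4 FPKM with it. The 4 groups did not overlap, with untreated macrophages lowest and LPS-treated macrophages highest. The log2 difference was 2.57 ± 0.05 in macrophages (limma adjusted p 4.27e-13) and 0.89 ± 0.05 in osteoclasts (6.83e-08).

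Rel encodes c-Rel, a subunit prominent in lymphoid and myeloid cells (chr11:23736847-23770970). It was at 5.89, 6.62 and 7.35 FPKM in untreated macrophages and at 56.1, 58.8 and 56.6 FPKM after LPS. In osteoclasts it went from 9.07, 8.12 and 9.17 FPKM to 13.2, 13.2 and 14.2 FPKM. Osteoclasts with LPS thus lay above both untreated groups and far below LPS-treated macrophages, and no groups overlapped. The mean rose 8.64-fold in macrophages and 1.54-fold in osteoclasts, which on the log2(FPKM + 1) scale was 2.94 ± 0.07 (limma adjusted p 3.19e-12) and 0.57 ± 0.07 (8.80e-05).

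Nfkb1 encodes p105, the precursor of p50, the usual partner of p65 (chr3:135584655-135691547). Untreated macrophages held 14.0, 14.3 and 13.9 FPKM and LPS-treated macrophages 113, 111 and 114 FPKM. Osteoclasts held 7.97, 8.23 and 8.41 FPKM without LPS and 15.7, 13.2 and 15.5 FPKM with it. The treated osteoclasts overlapped the untreated macrophages, with replicate 2 below and replicates 1 and 3 above them. Nfkb1 rose by 2.92 ± 0.06 in macrophages (limma adjusted p 6.54e-13) and by 0.78 ± 0.06 in osteoclasts (1.13e-06) on the log2 scale.

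Nfkb2 encodes p100, which is processed to p52 and which also restrains Relb dimers (chr19:46304320-46312385). In FPKM it was the subunit with the highest level after LPS in both cell types. Macrophages went from 22.5, 22.8 and 24.5 FPKM to 273.2, 264.1 and 281.3 FPKM, and osteoclasts from 43.3, 42.4 and 40.4 FPKM to 74.0, 76.6 and 75.7 FPKM. No groups overlapped. The mean rose 11.7-fold in macrophages, a log2 difference of 3.50 ± 0.04 (limma adjusted p 3.87e-14), and 1.79-fold in osteoclasts, a log2 difference of 0.83 ± 0.04 (5.75e-08). In the GENCODE M21 annotation Nfkb2 has 4584 merged exon bases and shares 830 with genes on the opposite strand. Its FPKM steps gave 3289 bases, so whether the shared ones were counted is not known. Whether reads were counted by strand is not given in the sources used here either, so its values are uncertain.

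Among the inhibitors, Nfkbia encodes IkB-alpha, the fast feedback inhibitor (chr12:55489410-55492647), and it had the highest level of the 10 members in all 4 groups. It was at 65.3, 64.0 and 65.4 FPKM in untreated macrophages and at 1023, 1028 and 1043 FPKM after LPS. Untreated osteoclasts already held 209.2, 213.7 and 224.8 FPKM, and LPS-treated osteoclasts held 296.2, 286.1 and 267.8 FPKM. No groups overlapped. The mean rose 15.9-fold in macrophages and 1.31-fold in osteoclasts, or by 3.97 ± 0.04 (limma adjusted p 2.20e-14) and 0.39 ± 0.04 (4.13e-05) on the log2(FPKM + 1) scale. In FPKM, LPS added 966.6 in macrophages and 67.5 in osteoclasts.

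Nfkbib encodes IkB-beta, which is degraded more slowly than IkB-alpha (chr7:28758251-28767512). Untreated macrophages (10.5, 12.4 and 10.1 FPKM) and untreated osteoclasts (11.4, 12.1 and 12.4 FPKM) overlapped. LPS brought macrophages to 110.3, 107.9 and 116.3 FPKM and osteoclasts to 23.1, 22.4 and 22.4 FPKM. The log2 differences were 3.24 ± 0.06 (limma adjusted p 9.12e-13) and 0.87 ± 0.06 (1.68e-06). Nfkbib shares 356 exon bases with genes on the opposite strand, so its values are uncertain to that extent, as counting by strand is not given.

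Nfkbie encodes IkB-epsilon, an inhibitor that is made later in the feedback (chr17:45555703-45563169). Its values were 8.29, 8.30 and 9.17 FPKM in untreated and 151.9, 153.1 and 151.9 FPKM in LPS-treated macrophages. In osteoclasts they were 14.25, 12.18 and 14.97 FPKM without and 34.9, 33.3 and 31.9 FPKM with LPS. The groups did not overlap. Nfkbie rose 17.7-fold and 2.42-fold, by 4.00 ± 0.07 (limma adjusted p 2.61e-13) and 1.22 ± 0.07 (1.01e-07) on the log2 scale, and its osteoclast fold was the highest of the members after that of Nfkbiz.

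Nfkbid encodes the nuclear inhibitor IkB-NS (chr7:30421732-30428746). It was at 6.75, 5.89 and 6.28 FPKM in untreated macrophages and at 16.3, 19.45 and 15.9 FPKM after LPS. Osteoclasts held 12.7, 11.7 and 11.9 FPKM without LPS and 19.7, 20.1 and 19.5 FPKM with it. All 3 treated osteoclast libraries were above the treated macrophage libraries, the highest of which was 19.45 and the lowest treated osteoclast 19.50 FPKM. Nfkbid rose 2.73-fold in macrophages, by 1.31 ± 0.07 on the log2 scale (limma adjusted p 5.86e-09, and by 0.77 after rescaling to TPM), and 1.63-fold in osteoclasts, by 0.66 ± 0.07 (3.52e-05).

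Nfkbiz encodes IkB-zeta, a nuclear coactivator that a subset of LPS-induced genes needs (chr16:55811375-55838899). Untreated macrophages held 3.88, 3.58 and 3.72 FPKM and LPS-treated macrophages 267.6, 270.0 and 259.1 FPKM. Untreated osteoclasts held 0.18, 0.37 and 0.42 FPKM, from 17, 31 and 36 reads, and LPS-treated osteoclasts 17.3, 10.5 and 16.1 FPKM, from 1720, 815 and 1476 reads. The groups did not overlap, and Nfkbiz went from the lowest level of the 10 members in untreated osteoclasts to the range of Nfkb1 and Rel in treated ones. Its mean rose 71.2-fold in macrophages and 45.3-fold in osteoclasts, where the fold between single libraries ran from 25.0 to 94.3. On the log2(FPKM + 1) scale it rose by 5.82 ± 0.14 in macrophages (limma adjusted p 3.80e-12) and by 3.54 ± 0.14 in osteoclasts (7.32e-09), which put it 55th and 31st among 11335 genes from the highest. That scale understates changes from a level under 1 FPKM, and voom on the recovered reads gave 6.15 ± 0.13 and 5.56 ± 0.46.

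LPS-treated osteoclast replicate 2 had the lowest Nfkbiz of its group and also the lowest sum of the 8 macrophage markers, 2722 FPKM. Of these, 6 were lowest there, and Csf1r (the M-CSF receptor) and Cd68 were highest. Adgre1, which encodes the macrophage antigen F4/80, was at 73.1, 42.5 and 70.9 FPKM in the 3 libraries, and Lyz2, lysozyme, at 1843, 927 and 1590 FPKM. Without that library the log2 difference of Nfkbiz in osteoclasts was 3.75. LPS-treated osteoclasts held 5.52% of the LPS-treated macrophage level of Nfkbiz, 9.28% of that of Adgre1, 11.2% of Lyz2 and 0.814% of Mrc1, the mannose receptor. Over the 8 markers the percentage ran from 0.679% (Cx3cr1) to 11.2% for 6, and was 69.7% for Csf1r and 175% for Cd68. The other 9 members stood at 13.1% (Nfkb1) to 115% (Nfkbid). Of the 10 members, Nfkb1, Nfkbib and Nfkbiz were lowest in replicate 2. The part of remaining macrophages in the osteoclast values of these members was not tested.

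The question of whether the response differed between the cell types was put to the interaction, which subtracts the macrophage effect of LPS from the osteoclast one. All 10 members were called below 0, against 30.0% of all genes (56.6% were called in either direction). A value of at most -1 was called for 9 of them, with Nfkbid as the exception, against 10.5% of all genes. Nfkbia had the lowest value, -3.58 ± 0.06 (limma adjusted p 5.24e-12), 63rd from the lowest among 11335 genes. It was followed by Nfkbie at -2.78 ± 0.09, Nfkb2 at -2.67 ± 0.06, Nfkbib at -2.37 ± 0.09, Rel at -2.36 ± 0.10, Nfkbiz at -2.28 ± 0.19, Nfkb1 at -2.14 ± 0.08, Relb at -1.68 ± 0.07 and Rela at -1.52 ± 0.05. Nfkbid had -0.65 ± 0.10 (limma adjusted p 1.39e-04). With the values rescaled to TPM, Nfkbid was at -0.15 (0.257), Rela at -0.96 and Nfkbiz at -1.01, all below 0. The median of the 5 subunits was -2.14 and that of the 5 inhibitors -2.37, beside -0.01 for all genes.

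Set against the macrophage response, the members fell into different places. The log2 fold of the means in osteoclasts was 9.84% of that in macrophages for Nfkbia, between 18.7% (Rela) and 34.9% (Relb) for the subunits, Nfkbib and Nfkbie, 48.8% for Nfkbid and 89.4% for Nfkbiz. For Nfkbiz the call depended on how the low untreated values were handled. With a pseudocount of 0.1 in place of 1 its interaction was -0.98 (limma adjusted p 0.0169), and with voom on the recovered reads it was -0.59 ± 0.48 (0.318), which was not called. The other 9 interactions were called with voom, between -3.60 for Nfkbia and -0.75 for Nfkbid. The plot of LPS effects shows both scales.

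**Figure D2:**
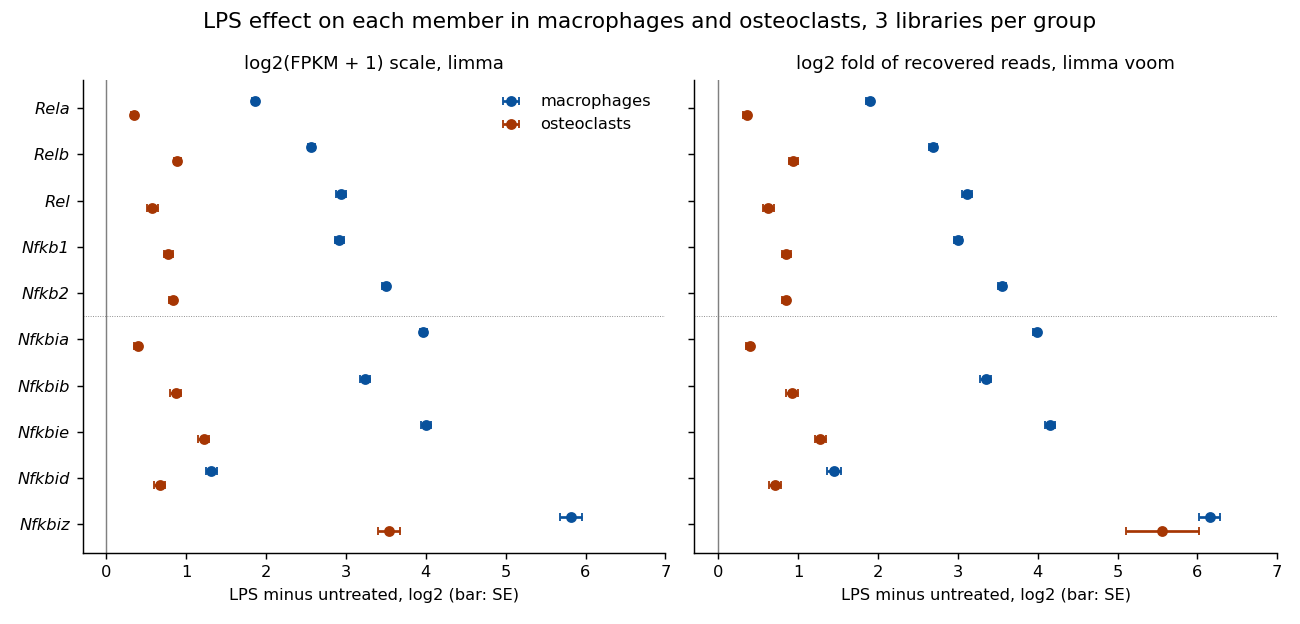
LPS effect (LPS minus untreated, log2, with SE) on each member in macrophages (blue) and osteoclasts (brown), on the log2(FPKM + 1) scale at left and as the log2 fold of recovered reads from voom at right. Macrophage points lie to the right of osteoclast points for every member, and for Nfkbiz the difference goes from -2.28 at left to -0.59 at right.

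Before LPS, osteoclasts and macrophages already differed in 9 of the 10 members by limma, where 77.8% of all genes were called (38.8% higher and 39.0% lower). Nfkbia was 3.33-fold higher in osteoclasts, Nfkbid 1.92-fold (log2 difference 0.84 ± 0.07), Nfkb2 1.81-fold (0.83 ± 0.04) and Nfkbie 1.61-fold (0.62 ± 0.07). Relb and Rel were each 1.33-fold higher, with log2 differences of 0.38 ± 0.05 and 0.36 ± 0.07, which became -0.0042 and -0.0051 and were not called after rescaling to TPM. Nfkbiz was 11.5-fold lower in osteoclasts (log2 difference -1.84 ± 0.14, and -3.60 ± 0.47 with voom), Nfkb1 1.71-fold lower (-0.71 ± 0.06) and Rela 1.09-fold lower (-0.12 ± 0.04). Nfkbib was not called, at 0.12 ± 0.06 (limma adjusted p 0.104), and became 0.20 and called without untreated macrophage replicate 2, but -0.28 and called after rescaling to TPM. So 6 members were higher and 3 lower. With TPM values 4 were higher and 4 lower. The TPM differences were 0.43 for Nfkb2, 0.26 for Nfkbie, 0.51 for Nfkbid, -0.53 for Rela, -1.16 for Nfkb1 and -3.01 for Nfkbiz, and with quantile-normalized values that of Rela was -0.28.

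With LPS, Nfkbia, Nfkb2, Nfkbie, Relb and Rel, which had been higher in osteoclasts, were lower there. Limma called all 10 members, and 83.9% of all genes (40.9% higher and 43.0% lower), and 9 members were lower in osteoclasts. The level in LPS-treated macrophages exceeded that in LPS-treated osteoclasts 18.1-fold for Nfkbiz, 7.61-fold for Nfkb1, 4.92-fold for Nfkbib, 4.57-fold for Nfkbie, 4.22-fold for Rel, 3.64-fold for Nfkbia, 3.62-fold for Nfkb2, 3.16-fold for Rela and 2.52-fold for Relb. These log2 differences ran from -4.12 ± 0.14 for Nfkbiz to -1.30 ± 0.05 for Relb. Nfkbid alone was higher in osteoclasts, 1.15-fold, with a log2 difference of 0.19 ± 0.07 (limma adjusted p 0.0232). That call was lost with only these groups in the fit (0.0502), and without LPS-treated macrophage replicate 1 (0.0839) or 3 (0.10) or LPS-treated osteoclast replicate 2 (0.0582). The difference was 0.35 with TPM and 0.40 with quantile-normalized values, both called. The 2 cell type contrasts and the 2 LPS effects rest on the same 12 libraries.

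The order of the members within a group was read from FPKM, which is per length. In untreated macrophages Nfkbia, Rela, Nfkb2 and Nfkb1 led, in that order, and Rel and Nfkbid overlapped. After LPS the order was Nfkbia, then Nfkb2 and Nfkbiz, which overlapped, then Nfkbie and Rela, then Nfkb1 and Nfkbib, which overlapped, and Nfkbid was last. In untreated osteoclasts Nfkbia, Nfkb2 and Rela led, followed by Nfkbie, Relb, Nfkbid and Nfkbib, whose neighbours overlapped. In LPS-treated osteoclasts the first 3 places were the same, and Nfkb1, Nfkbiz and Rel overlapped at the end.

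The make-up of each class, as a share of the class's summed FPKM, does not depend on how libraries are scaled. Of the subunit transcripts in macrophages, Rela made up 37.8% ± 0.575 (SD, n = 3) and Nfkb2 27.0% ± 0.460 without LPS, and 19.3% ± 0.179 and 43.6% ± 0.695 with LPS. In osteoclasts Rela made up 29.4% ± 0.376 and Nfkb2 41.3% ± 1.26 without LPS, and 23.0% ± 0.354 and 45.3% ± 0.618 with LPS. By FPKM, Nfkb2 was thus the leading subunit transcript in osteoclasts with and without LPS, and in macrophages only after LPS. FPKM divides reads by length, which was 12061 bases for Nfkb1, against 3289 for Nfkb2 and 2716 for Rela. In recovered reads Nfkb1 led the subunits in macrophages, with 11696 without and 56684 with LPS, against 5269 and 37435 for Nfkb2. In osteoclasts Nfkb2 led in reads too (7246 and 13250, against 5173 and 9609 for Nfkb1). The shares and ratios given here thus depend on the lengths used. The share of Nfkb1 was 16.4% ± 0.707 and 18.0% ± 0.125 in untreated and treated macrophages and 8.06% ± 0.248 and 8.89% ± 0.837 in osteoclasts. Nfkb2 over Nfkb1 was 1.65 ± 0.0955 in untreated and 2.42 ± 0.0531 in treated macrophages, against 5.13 ± 0.313 and 5.14 ± 0.580 in osteoclasts. Relb over Rela went, with LPS, from 0.294 ± 0.0121 to 0.509 ± 0.00685 in macrophages and from 0.426 ± 0.0213 to 0.639 ± 0.0340 in osteoclasts, with no overlap between treated and untreated libraries.

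Among the inhibitors, Nfkbia made up 68.7% ± 0.621 in untreated and 65.4% ± 0.335 in LPS-treated macrophages, and 85.0% ± 0.535 and 75.8% ± 0.988 in osteoclasts. Among Nfkbia, Nfkbib and Nfkbie alone its share was 2.78 percentage points higher with LPS in macrophages, against a difference of -3.32 among all 5. The share of Nfkbiz went from 3.95% ± 0.145 to 16.8% ± 0.427 in macrophages and from 0.127% ± 0.0460 to 3.92% ± 0.945 in osteoclasts. Nfkbid went from 6.67% ± 0.438 to 1.09% ± 0.123 in macrophages, and stood at 4.77% ± 0.338 and 5.29% ± 0.228 in osteoclasts. Of the nuclear pair, Nfkbiz was 15.5 times Nfkbid in LPS-treated macrophages, while in LPS-treated osteoclasts it was 0.744 times. The summed inhibitors over the summed subunits came to 1.10 ± 0.0306 in untreated and 2.52 ± 0.0356 in treated macrophages, and to 2.50 ± 0.104 and 2.25 ± 0.115 in osteoclasts. The log2 ratio differed by 1.20 with LPS in macrophages and by -0.15 in osteoclasts, each with an exact two-sided permutation p of 0.10, the smallest that 3 against 3 libraries allow. None of these shares could reach a p under that value.

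**Figure D3:**
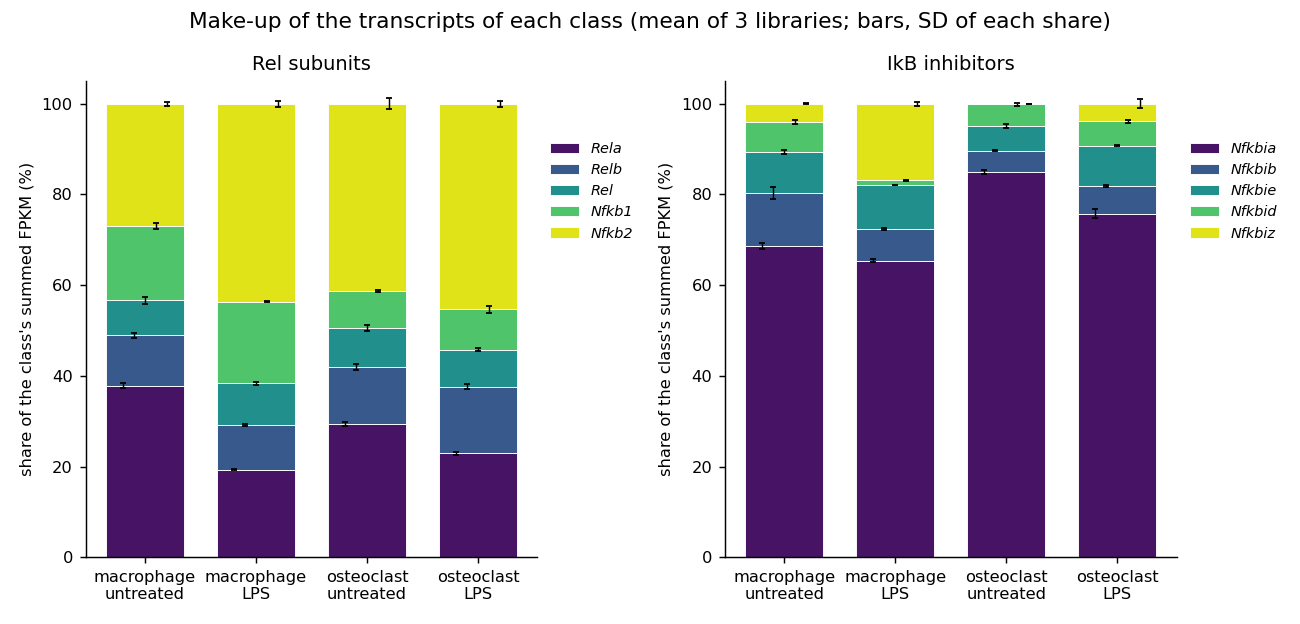
Share of each member in the summed FPKM of its class (%), subunits at left and inhibitors at right, as stacked means of 3 libraries with the SD of each share as a bar. Nfkb2 takes 27.0% of the subunit transcripts in untreated macrophages and 41.3% to 45.3% in the other 3 groups, and Nfkbia takes 85.0% of the inhibitor transcripts in untreated osteoclasts.

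The kinases and degradation factors that act on the inhibitors formed a list of 17 genes, of which 16 were tested and Btrc was not. In macrophages 14 rose and 2 fell with LPS (36.8% and 33.1% of all genes did), and the median log2 difference was 0.51, beside 0.02 for all genes, but 6 rose and 7 fell with TPM values and 8 and 3 with quantile-normalized ones. In osteoclasts 5 rose, 1 fell and 10 were not called (11.1% and 6.59% of all genes rose and fell), with a median of 0.09, and with TPM values 3 rose, with a median of 0.028. Map3k8, the kinase TPL2 that p105 holds, went from 1.97 ± 0.0753 to 60.6 ± 1.59 FPKM in macrophages and from 1.20 ± 0.0440 to 3.67 ± 0.284 FPKM in osteoclasts, an interaction of -3.29 ± 0.07 (limma adjusted p 2.31e-11). Ikbke, an IKK-related kinase, rose by 2.69 in macrophages and by 1.08 in osteoclasts on the log2 scale, and Fbxw11, a subunit of the ubiquitin ligase that marks IkB proteins, by 1.55 and 0.14, of which the osteoclast value was 0.075 and not called with TPM values. Ikbkb, the catalytic IKK-beta, rose in macrophages from 4.59 ± 0.101 to 11.7 ± 0.319 FPKM and was at 4.21 ± 0.0350 and 4.61 ± 0.145 FPKM in osteoclasts, where it was not called.

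Map3k14, the kinase NIK that starts p100 processing, fell in both, from 6.25 ± 0.239 to 1.04 ± 0.157 FPKM in macrophages and from 2.62 ± 0.130 to 1.62 ± 0.266 FPKM in osteoclasts, and its interaction was 1.36 (limma adjusted p 8.28e-07). Tab1, a partner of the kinase TAK1, fell in macrophages from 8.90 ± 0.671 to 1.78 ± 0.245 FPKM and stood at 9.66 ± 0.181 and 8.58 ± 0.825 FPKM in osteoclasts. Ikbke shares exon bases with opposite-strand genes and Map3k14 with a gene on its own strand, so these values are uncertain to that extent. In the interaction, 11 of the 16 were called below 0 and 2 above, against 30.0% and 26.6% of all genes, and 6 and 6 with TPM values. The plot of pathway genes shows both effects for each gene.

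**Figure D4:**
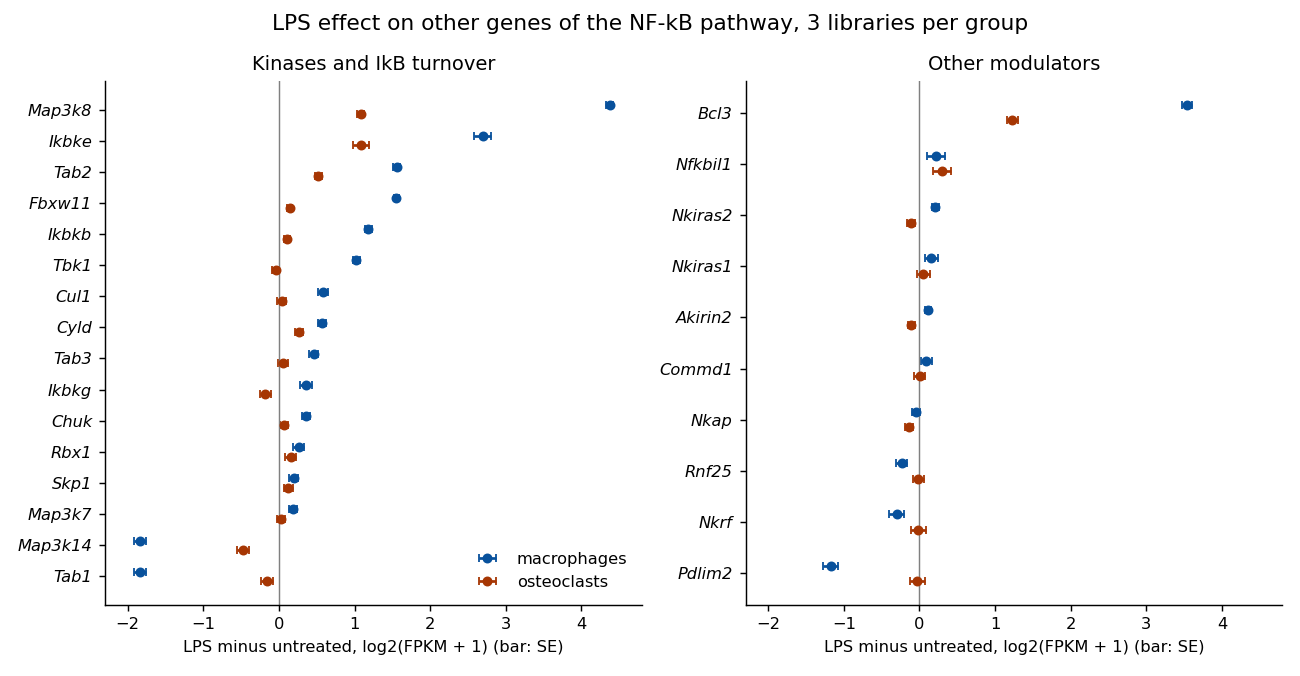
LPS effect (LPS minus untreated, log2(FPKM + 1), with SE) in macrophages (blue) and osteoclasts (brown) on the 16 kinases and turnover genes tested at left and the 10 other modulators tested at right. Map3k8 and Bcl3 lead their panels in macrophages, and Map3k14 and Tab1 lie below 0 at left.

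Of 11 other modulators, 10 were tested and Nkapl was not. In macrophages 3 rose and 3 fell, shares near the 36.8% and 33.1% of all genes, and with TPM values 1 rose and 8 fell. In osteoclasts Bcl3 alone was called, 1 of 10 against 11.1% of all genes called higher, while 1 of the others was called lower with TPM and 3 with quantile-normalized values. Bcl3, a nuclear IkB relative that binds p50 and p52, went from 8.66 ± 0.667 to 111.1 ± 3.02 FPKM in macrophages and from 9.67 ± 0.928 to 23.9 ± 1.64 FPKM in osteoclasts, with an interaction of -2.31 (limma adjusted p 2.85e-09). It shares exon bases with an opposite-strand gene. Pdlim2, which promotes the breakdown of nuclear p65, fell in macrophages from 4.60 ± 0.772 to 1.48 ± 0.254 FPKM and stood at 0.775 ± 0.0680 and 0.742 ± 0.0775 FPKM in osteoclasts.

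Of 18 known NF-kB targets, all 18 rose in both cell types, where 36.8% and 11.1% of all genes did, by a median of 5.43 (log2) in macrophages and 2.63 in osteoclasts, and all 18 interactions were called below 0 on the log2(FPKM + 1) scale, against 30.0% of all genes. Il1b, Il6, Cxcl1, Ccl5, Il12b and Nos2 reached 1 FPKM only in treated libraries, so for them the filter itself required a high treated level. Of the 3 treated osteoclast libraries, replicate 2, the one with the lowest sum of macrophage markers, was lowest for 17 of the 18 targets and for 33.6% of all genes. The treated osteoclast level of the targets was 0.561% to 71.0% of that in treated macrophages, with a median of 10.2%, and the median of the 8 macrophage markers was 8.15%. The part of remaining macrophages in the osteoclast values of the targets was not tested. The interactions of 16 targets were called below 0 with a pseudocount of 0.1, and those of 14 with voom on the recovered reads. With TPM values 15 were called below 0 and 1 above, and with quantile-normalized values 17 were called below 0. Cxcl2 and Ptgs2, a chemokine and the prostaglandin enzyme COX-2, had 27 and 6 reads in all in untreated osteoclasts, and their interactions turned to 0.68 and 0.57 with a pseudocount of 0.1 and to 1.11 and 2.62 with voom, none of them called. That of Cxcl2 was 0.52 and called with TPM values, and that of Tnf was 0.11 and not called with quantile-normalized ones. Tnfaip3, which encodes the deubiquitinase A20, another feedback inhibitor, went from 6.27 ± 0.159 to 502.1 ± 9.36 FPKM in macrophages and from 19.6 ± 1.02 to 44.3 ± 0.624 FPKM in osteoclasts. Like Nfkbia it was higher in untreated osteoclasts than in untreated macrophages. Of 7 genes reported to need IkB-zeta in macrophages, 6 were tested and Csf2 was not. All 6 rose in macrophages and 4 rose in osteoclasts (5 with a pseudocount of 0.1 or voom), where 36.8% and 11.1% of all genes did. Csf3 and Lcn2 reached 1 FPKM only in LPS-treated macrophages, and Il6, Il12b and Edn1 only in treated libraries. For these genes the filter itself required a high treated level, so their rise is partly fixed by it. Il6 reached 133.4 ± 6.38 FPKM in treated macrophages and 4.86 ± 1.27 FPKM in treated osteoclasts, and Il12b 297.2 ± 14.5 and 11.0 ± 3.08 FPKM. Untreated osteoclasts held 0 reads of both. In treated osteoclasts replicate 2 was again lowest for 4 of the 6, with Il6 at 5.22, 3.45 and 5.91 FPKM and Il12b at 13.2, 7.49 and 12.3 FPKM. Lcn2, lipocalin 2, reached 8.45 ± 1.65 FPKM in treated macrophages and 0.221 ± 0.0874 FPKM in treated osteoclasts. There it was called with TPM values (0.68) and with FPKM and a pseudocount of 0.1, but not with FPKM and a pseudocount of 1 (0.29).

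On the RANK side, 8 genes were followed, and Map3k14 is also in the kinase list. Untreated osteoclasts were higher than macrophages in 6 of them, beside 38.8% of all genes, including Tnfrsf11a, which encodes RANK, at 56.4 ± 1.83 against 36.1 ± 0.745 FPKM, and Traf6, its adapter, at 14.4 ± 0.743 against 5.90 ± 0.178 FPKM. With LPS, Tnfrsf11a rose by 0.78 in macrophages and fell by 0.15 in osteoclasts on the log2 scale, and Nfatc1, the master transcription factor of osteoclasts, fell by 0.51 in macrophages and rose by 0.23 in osteoclasts. With TPM values these were 0.15, -0.23, -1.17 and 0.16, the last not called. Over the list, 4 rose and 4 fell in macrophages (2 and 4 with TPM values), where 36.8% and 33.1% of all genes did, and 2 rose and 2 fell in osteoclasts, where 11.1% and 6.59% did. The count that rose in osteoclasts was 4 with voom, 3 with a pseudocount of 0.1 and 1 with TPM or quantile-normalized values.

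The genes whose log2(FPKM + 1) followed a member most closely over the 12 libraries were read from Pearson's r, which here mostly reflects the 4 group means. The closest was Trip10 for Nfkbia (r = 0.999), Irgm2 for Nfkbiz (0.999), Rap1b for Rela (0.998), Rnf114 for Nfkb1 (0.998), Aebp2 for both Nfkb2 (0.998) and Nfkbie (0.996), Mapkapk2 for Nfkbib (0.998), Car13 for Rel (0.997) and Ehd1 for Relb (0.996). For Nfkbid it was Efna2 at 0.978, the lowest of the 10. Tnfaip3 was among the 3 closest to Nfkb2 (0.998).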

How the data were processed

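Poly(A) or other selection is not given in the sources used here. Per the labels' protocols, libraries were made from total RNA with the NEBNext Ultra RNA kit. The submitters' processing notes name fastp, STAR, featureCounts, DESeq2 and mm10, without versions. The authors deposited FPKM values per gene for 12 libraries. Read totals and whole reads were recovered from the steps of the FPKM values (tolerance 0.02 of a read) for 99.6% of the 25854 genes above 0, and the denominators followed median-of-ratios size factors, so values are relative to the typical gene. Gene lengths matched GENCODE M21 for 96.8% of these genes. For Rela and Nfkb2 the steps gave 2716 and 3289 bases, against 3072 and 4584 merged exon bases. Positions are those of M21 on GRCm38.

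Limma 3.58.1 in R 4.3.3 (lmFit, contrasts, eBayes with a variance trend) was fitted to log2(FPKM + 1), for the 11335 genes that reached 1 FPKM in 3 or more libraries, with 4 group means and all 12 libraries, in two-sided tests adjusted by Benjamini-Hochberg over all of them. A gene was called at an adjusted p under 0.05. Voom on the recovered reads was an alternative. Results were also computed with TPM or quantile-normalized values, without a filter or with a minimum mean of 5 FPKM, with a pseudocount of 0.1, with weights per library, without the variance trend, with a term for replicate number, within the compared groups alone, and leaving out each library. The steps were tested on simulated data. The members, lists and tests were chosen with earlier results of these data known. All members are named, and in each list up to 3 genes with the lowest and 3 with the highest interaction among those called. Any kinase, Bcl3 or Map3k14 could also be named, and Ikbkb was. Of the 3 genes most correlated with each member, the closest is given, and Tnfaip3. Adgre1, Lyz2, Mrc1, Csf1r, Cd68 and Cx3cr1 among the macrophage markers, and Ptgs2 among the targets, were picked after their values were seen. A gene of the modulator list is not reported here, and the counts of that list leave it out.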

Additional observations from a re-analysis of the deposited data

Results flagged for a closer look

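The LPS effect differed between osteoclasts and macrophages by the interaction test for all 10 members and for genes of the pathway lists, of which 26 are given, those with up to the 3 lowest and 3 highest called values in each list. Each value is a log2(FPKM + 1) difference of the osteoclast minus the macrophage effect. The subunits stood at -1.52 (Rela), -1.68 (Relb), -2.36 (Rel), -2.14 (Nfkb1) and -2.67 (Nfkb2), and the inhibitors at -3.58 (Nfkbia), -2.37 (Nfkbib), -2.78 (Nfkbie), -0.65 (Nfkbid) and -2.28 (Nfkbiz). In the kinase and turnover list the values were -3.29 for Map3k8, -1.61 for Ikbke, -1.41 for Fbxw11, -0.29 for Chuk (the IKK-alpha kinase), 1.36 for Map3k14 and 1.68 for Tab1. Among other modulators they were -2.31 for Bcl3, -0.32 for Nkiras2, -0.22 for Akirin2 and 1.14 for Pdlim2. Among targets they were -6.96 for Il1b, -4.98 for Tnfaip3, -4.67 for Il12b, -1.82 for Icam1, -0.85 for Cxcl2 and -0.71 for Tnf. Among the genes reported to need IkB-zeta they were -4.53 for Il6, -2.74 for Lcn2, -2.66 for Edn1, -1.58 for Csf3 and -0.73 for Cebpd. Il1b, Icam1, Edn1 and Cebpd share exon bases with opposite-strand genes, as do Nkiras2 above and Sqstm1 below. On the RANK side they were -1.31 for Sqstm1, -0.94 for Tnfrsf11a, -0.43 for Traf6, 0.74 for Nfatc1 and 0.87 for Fos. For Il1b, Il6 and Il12b the untreated osteoclasts held 1, 0 and 0 reads in all, so the sizes of their LPS effects in osteoclasts depend on the pseudocount. Csf3 held 0 reads in untreated macrophages and 1 and 4 in untreated and treated osteoclasts, so the size of its interaction depends on the pseudocount. Of the members, Nfkbiz was at -0.59 with voom on the recovered reads and Nfkbid at -0.15 with TPM values, neither called. With TPM values the interactions of Nkiras2 (0.23), Akirin2 (0.34), Chuk (0.26), Cxcl2 (0.52) and Traf6 (0.08, not called) were above 0, and those of Tnf (-0.039) and Cebpd (-0.082) were not called. With quantile-normalized values Nkiras2 (0.007), Akirin2 (0.12) and Tnf (0.11) were above 0 and Chuk at -0.094, none of them called. With voom on the recovered reads Lcn2 (-1.76), Edn1 (-0.69) and Cxcl2 (1.11) were not called, nor was Cxcl2 with a pseudocount of 0.1 (0.68).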

How the results depend on the processing

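Of 218 counts of members under the alternatives, 214 stayed within 1.5 times the reported count. The count of members higher in osteoclasts than in macrophages with LPS, 1 (Nfkbid), was 0 with only the groups compared, and it lay between 0 and 1 over the libraries left out in turn. Rescaled to TPM, Relb (-0.0042), Rel (-0.0051) and Nfkbib (-0.28) reversed for untreated osteoclasts against macrophages. Of 1090 values of single members, 1080 kept their direction and side of the threshold. Both the 218 and the 1090 include fits without a library outside the comparison and settings that change only the estimated spread. In those the difference itself could not move. Shares of a class reversed in 5 of 292 cases, given here in percentage points. With recovered reads, which weight long genes, Nfkbie in macrophages with LPS went to -1.51 (0.567 reported), and for treated osteoclasts against macrophages Rel went to 0.783 (-1.01), Nfkbib to 0.295 (-1.002) and Nfkbie to 1.58 (-0.727). Among the 3 cytoplasmic inhibitors alone the share of Nfkbia differed by 2.78 with LPS in macrophages (-3.32 among all 5).

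With a mean of at least 5 FPKM, 6430 genes were tested and fewer were called: 4851 in place of 7921 for LPS in macrophages, 5427 in place of 8822 and 5694 in place of 9509 for the cell types without and with LPS, and 4018 in place of 6413 for the interaction. Among all genes called, the share that was higher was 52.6% for LPS in macrophages (18.5% with TPM, 37.0% with quantiles), 62.8% in osteoclasts (43.5% and 38.5%), 49.9% for untreated osteoclasts against macrophages (29.9% with TPM) and 47.0% for the interaction (82.0% and 59.9%). Of 18 pairs of libraries with the same replicate number, 5 correlated above 0.1 in their deviations (range -0.06 to 0.19). Other pairs ran from -0.26 to 0.19. Untreated and treated libraries of the same number gave 0.13, 0.15 and -0.04 in macrophages and 0.19, 0.18 and 0.01 in osteoclasts. Whether the numbers mark pairs was thus not settled, and they were not taken as pairing. With the replicate number as a block, the calls of all genes went from 2008 to 1930 for LPS in osteoclasts and from 7921 to 7914 in macrophages, and no call of a member changed. Depth limits Nfkbiz in untreated osteoclasts, with 84 reads in all.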
